A study of Homo sapiens with 4 samples.

Results

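The genes described here are the transcriptional end of the Hippo pathway: the co-activators YAP1 and WWTR1 (the gene of TAZ), the DNA-binding factors TEAD1 and TEAD2, the matricellular targets CCN1 and CCN2, the further targets ANKRD1 and AMOTL2, the kinase LATS2 and the LIM protein AJUBA. They were chosen by name, with earlier results of these data known. Every probe set annotated to 1 of these genes alone was taken, which gave 26 probe sets for 10 of the 19775 genes that the array names. SH-SY5Y, a human neuroblastoma cell line of sympathetic origin, was grown for 72 h in 2 groups of 2 samples, a TSPAN8 knockdown (siRNA taken up through the Accell delivery system) and a transfection control. Both groups were cultured alike, and the labels do not say what the control cells received. Each sample was 1 array of total RNA, and because the labels name no separate cultures, the spread between the arrays of a group may be technical. TSPAN8, which encodes a cell-surface tetraspanin, was at 7.52 and 7.62 (log2) on the control arrays and at 6.25 and 6.35 on the knockdown arrays, lower in knockdown as the labels state.

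In the Hippo pathway the kinases STK3 and STK4 activate LATS1 and LATS2, which phosphorylate YAP and TAZ and hold them in the cytoplasm. When the kinases are off, as in spread or mechanically loaded cells, YAP and TAZ enter the nucleus, bind TEAD factors and raise genes such as CCN1, CCN2, ANKRD1, AMOTL2 and LATS2 itself, the last 2 of which feed back to restrain YAP. In neuroblastoma, YAP and TAZ activity is known mainly from cells of the mesenchymal state, whereas SH-SY5Y is mostly of the noradrenergic one.

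TEAD factors recognise the letters GGAATG, and 4 promoters with a match are shown: CCN2 and ANKRD1 because they serve widely as readouts of YAP and TEAD, and YAP1 and AMOTL2 as a co-activator and a target with brighter signal. Each line gives the 250 bases before a RefSeq transcription start on GRCh38.p14, 5' to 3' on the gene's strand, with GGAATG or its reverse complement CATTCC in capitals. The windows are chr6:131951373-131951622 (minus strand) for CCN2, chr10:90921088-90921337 (minus) for ANKRD1, chr11:102110197-102110446 (plus) for YAP1 and chr3:134374448-134374697 (minus) for 1 of the 2 AMOTL2 starts.
CCN2: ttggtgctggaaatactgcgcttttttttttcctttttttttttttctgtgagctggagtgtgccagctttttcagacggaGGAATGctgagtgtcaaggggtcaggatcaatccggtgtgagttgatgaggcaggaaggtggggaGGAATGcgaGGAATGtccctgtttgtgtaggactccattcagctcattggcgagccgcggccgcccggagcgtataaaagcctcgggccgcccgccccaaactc
ANKRD1: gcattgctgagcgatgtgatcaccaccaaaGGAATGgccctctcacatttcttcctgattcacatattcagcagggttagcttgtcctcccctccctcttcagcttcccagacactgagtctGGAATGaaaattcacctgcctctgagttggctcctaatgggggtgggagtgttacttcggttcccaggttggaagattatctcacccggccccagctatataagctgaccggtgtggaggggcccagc
YAP1: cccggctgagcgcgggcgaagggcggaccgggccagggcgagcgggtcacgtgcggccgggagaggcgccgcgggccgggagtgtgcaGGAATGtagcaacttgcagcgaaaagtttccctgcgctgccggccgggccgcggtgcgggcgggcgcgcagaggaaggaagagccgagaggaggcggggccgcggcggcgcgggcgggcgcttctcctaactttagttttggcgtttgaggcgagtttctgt
AMOTL2: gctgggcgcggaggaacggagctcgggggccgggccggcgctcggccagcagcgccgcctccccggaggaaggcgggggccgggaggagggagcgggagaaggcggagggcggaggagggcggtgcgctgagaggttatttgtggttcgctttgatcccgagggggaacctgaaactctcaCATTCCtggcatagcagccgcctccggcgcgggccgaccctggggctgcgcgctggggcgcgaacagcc

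CCN2 held 3 matches, beginning 169, 104 and 95 bases before the start, and ANKRD1 held 2, beginning 220 and 128 bases before it. YAP1, AMOTL2 and AJUBA had 1 match each, and WWTR1, LATS2 and TEAD2 had none in these windows. At least 1 match occurred in 11.9% of all 35116 promoters in the table, at least 2 in 0.94% and at least 3 in 0.0826%. Of the 12 member promoters, which belong to 8 genes, 5 had a match. No promoter of CCN1 or TEAD1 was available, so these genes were not searched. The AP-1 motif TGANTCA, searched on both strands like the others, was found in 1 member promoter, that of ANKRD1 (6.57% of all promoters). The SRF CArG box was found in 0 of the 12, against 1.16% of all promoters. Such matches are letters in a window and not measured binding.

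The signal of the members before any comparison differed widely in its place on the array. The percentile of a probe set among all probe sets of its array is given as a guide to how far it stood above the dim end, and not as an abundance, since probes differ in affinity. TEAD1, TEAD2, AJUBA, AMOTL2, YAP1 and CCN1 each had a probe set above percentile 78 on both control arrays. TEAD1 reached 11.27 and 11.29 (log2, percentiles 97.2 and 97.2). In contrast, all 3 probe sets of WWTR1 lay between percentiles 19.3 and 37.6 and all 4 of LATS2 between 8.95 and 30.6. CCN2 lay at percentiles 7.26 and 2.12 and ANKRD1 at 0.391 and 1.54, close to the lowest values of the arrays. Both targets with more than 1 motif match in the searched promoters, which did not include CCN1, thus lay among the dimmest probe sets. Summarised values compress any change at that level. Detection calls were not used here.

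**Figure D1:**
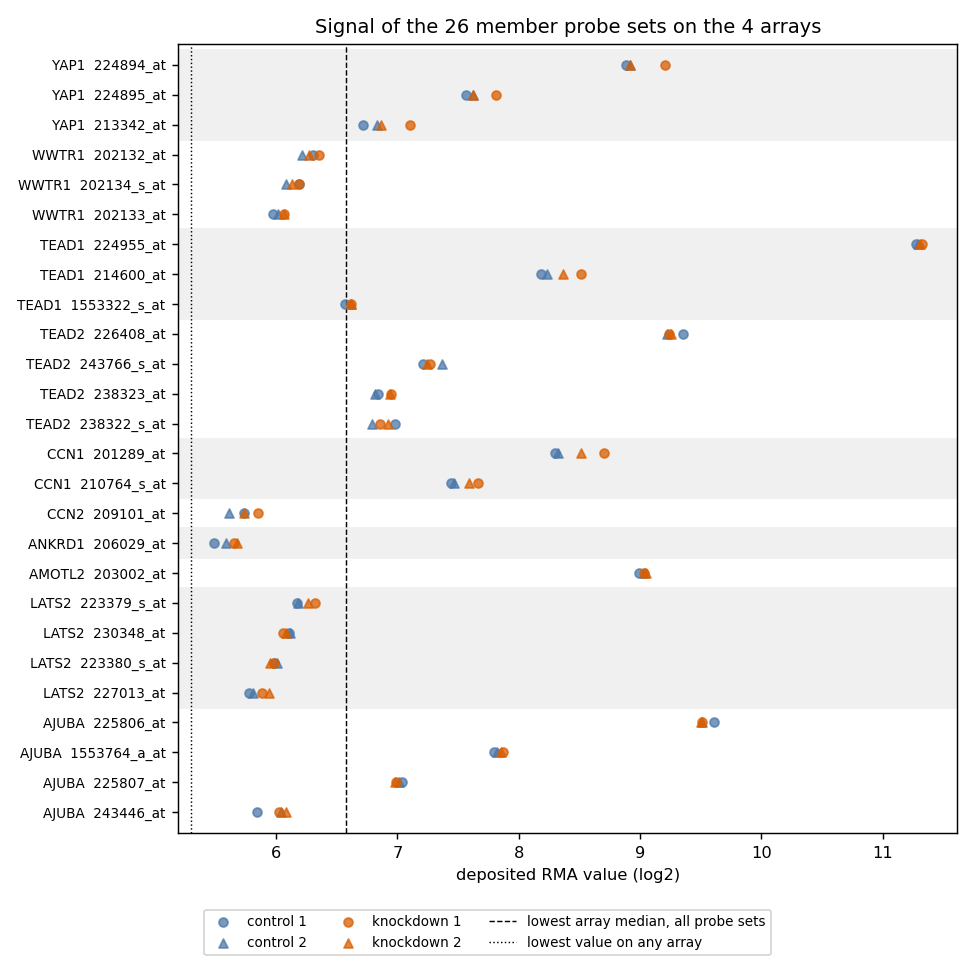
Deposited log2 values (horizontal axis) of the 26 probe sets of the 10 genes (rows), with circles and triangles for replicates 1 and 2, blue for control and orange for knockdown, the lowest array median as a dashed line and the lowest value on any array as a dotted line. CCN2 and ANKRD1 sit near the dotted line and all WWTR1 and LATS2 probe sets lie left of the dashed one; rows of different probe sets are not comparable in abundance.

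Knockdown and control differed little across the members, and the differences that were measured were mostly upward. Of the 26 probe sets, 0 passed an adjusted p of 0.05 (limma, Benjamini-Hochberg over 54613 probe sets), where 0.00183% of all probe sets, TSPAN8 alone, did. At an unadjusted p under 0.05, 5 were higher and 0 lower, beside 3.72% and 4.12% of all probe sets. These 5 belonged to CCN1 (both of its probe sets), TEAD1, YAP1 and ANKRD1. Both knockdown arrays lay above both control arrays for 12 probe sets, or 46.2%, and below them for 2, or 7.69%, beside 17.7% and 19.8% of all probe sets. In all, 20 of 26 probe sets were above control, with a median difference of 0.062 (log2) where the median of all probe sets was 0. Probe sets of a gene read transcripts of the same gene, so these counts are not of independent measurements. The members were chosen with earlier results of these data known, so the shares over all probe sets are no independent test of them. With 1 array left out, from 19 to 21 were above control.

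**Figure D2:**
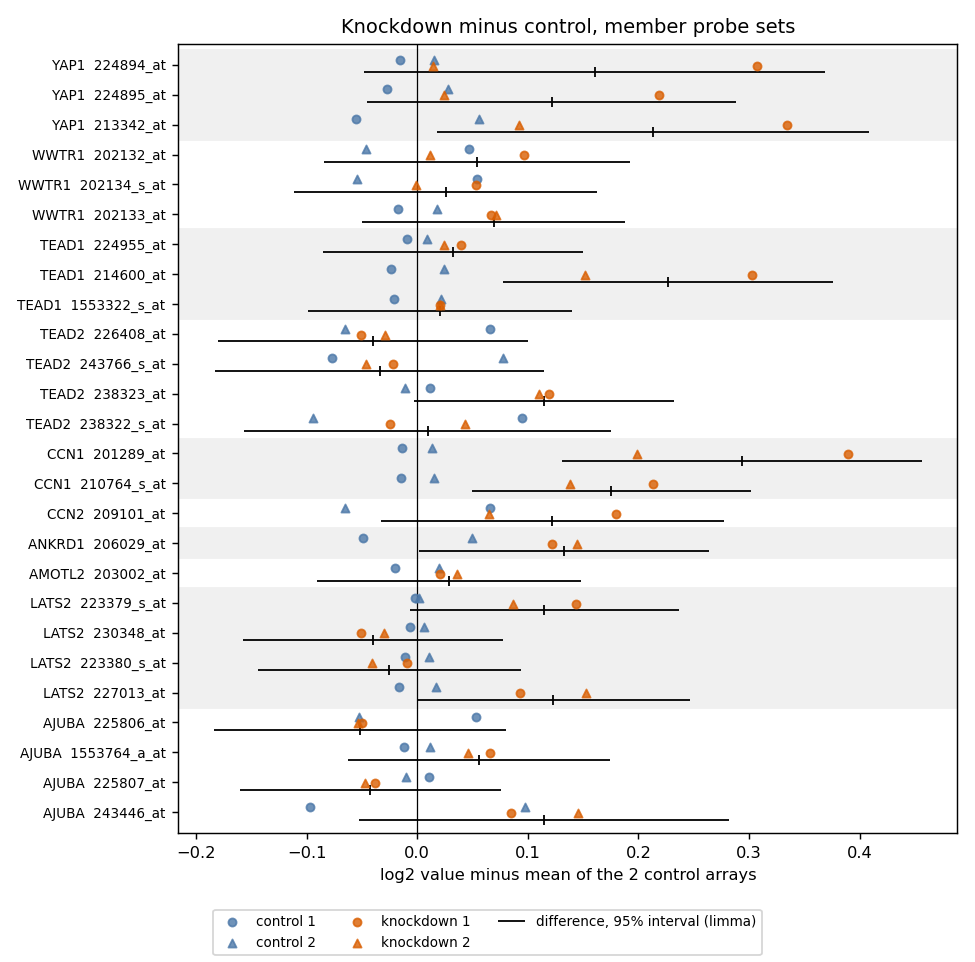
Log2 value minus the mean of the 2 control arrays (horizontal axis) for each of the 26 probe sets (rows), with circles for replicate 1, triangles for replicate 2, blue for control and orange for knockdown, and the difference between groups with its 95% interval as a black line. Only the intervals of both CCN1 probe sets, 1 TEAD1, 1 YAP1 and the ANKRD1 probe set lie wholly above 0, before any adjustment.

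CCN1, a secreted matrix protein that binds integrins and an immediate target of YAP, had the largest difference of the members. Its brighter probe set (201289_at) was at 8.30 and 8.32 on the control arrays and at 8.70 and 8.51 on the knockdown arrays. Both knockdown arrays were above both control arrays, replicate 1 by more than replicate 2. The difference was 0.29 ± 0.070 (SE, n = 2 per group) on the log2 scale, or 123% of the control signal with a 95% interval of 110% to 137% (limma, adjusted p = 0.58). Of all probe sets, 168 had a difference at least this large and 292 a p at least this small. The second probe set of CCN1 was at 7.44 and 7.47 on the control arrays and at 7.67 and 7.59 on the knockdown arrays, again without overlap. Its difference was 0.18 ± 0.055 (SE; limma, adjusted p = 0.60). Without knockdown replicate 1 the brighter probe set differed by 0.20 (adjusted p = 0.45).

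CCN2, the fibrosis-associated paralog of CCN1 and the most used YAP readout, was at 5.74 and 5.61 on the control arrays and at 5.85 and 5.74 on the knockdown arrays. The groups overlapped, since knockdown replicate 2 was no higher than control replicate 1. The difference of 0.12 ± 0.067 (SE) had an interval of -0.033 to 0.28 (limma, adjusted p = 0.69). ANKRD1, an ankyrin-repeat cofactor known from heart and stretched muscle, was at 5.49 and 5.58 on the control arrays and at 5.66 and 5.68 on the knockdown arrays. Its arrays did not overlap, and the difference was 0.13 ± 0.057 (SE; limma, adjusted p = 0.63). Both values come from the dimmest part of the arrays.

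AMOTL2, an angiomotin that retains YAP at junctions and is itself a YAP target, gave almost the same signal on all 4 arrays. It was at 8.99 and 9.03 on the control arrays and at 9.03 and 9.05 on the knockdown arrays. The knockdown arrays were higher by a margin smaller than the gap between the controls, 0.040. The difference was 0.029 ± 0.052 (SE), with an interval of -0.091 to 0.15 (limma, adjusted p = 0.94). A change of this bright target beyond 111% of control therefore lay outside the interval, while CCN1 had a point estimate above it. The interval of CCN1, from 110% to 137%, overlapped that of AMOTL2. The difference between these 2 targets was not tested.

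YAP1, the co-activator itself, stood above control mainly on knockdown replicate 1. Its brightest probe set (224894_at) was at 8.89 and 8.92 on the control arrays, at 9.21 on knockdown replicate 1 and at 8.92 on knockdown replicate 2. The knockdown arrays thus differed from each other by 0.29, more than the groups, whose difference was 0.16 ± 0.090 (SE; limma, adjusted p = 0.70). The second probe set repeated this, at 7.57 and 7.62 on the control arrays against 7.81 and 7.62 on knockdown replicates 1 and 2. The third was at 6.72 and 6.83 on the control arrays and at 7.11 and 6.86 on the knockdown arrays, with no overlap and a difference of 0.21 ± 0.084 (SE; limma, adjusted p = 0.63). Without knockdown replicate 1 the brightest probe set differed by 0.014. WWTR1 encodes TAZ, the paralog of YAP. Its brightest probe set was at 6.30 and 6.21 on the control arrays and at 6.35 and 6.27 on the knockdown arrays. The groups overlapped, and the difference of 0.054 ± 0.060 (SE) did not pass (limma, adjusted p = 0.88). Over its 3 probe sets WWTR1 differed by 0.026 to 0.069, all below the array median.

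TEAD1 and TEAD2 bind DNA and carry YAP and TAZ to their targets. The brightest TEAD1 probe set was at 11.27 and 11.29 on the control arrays and at 11.32 and 11.31 on the knockdown arrays, a difference of 0.032 ± 0.051 (SE; limma, adjusted p = 0.93). Another TEAD1 probe set (214600_at) was at 8.19 and 8.24 on the control arrays and at 8.51 and 8.36 on the knockdown arrays. The knockdown arrays were above both controls there, by 0.23 ± 0.064 (SE; limma, adjusted p = 0.60), while the third TEAD1 probe set differed by 0.020. The point estimates of the TEAD1 probe sets thus ranged widely. Their 95% intervals were -0.086 to 0.15 at the brightest and 0.078 to 0.38 at the second, which overlap, and the difference between probe sets was not tested. TEAD2 was at 9.35 and 9.22 on the control arrays and at 9.23 and 9.26 on the knockdown arrays, inside the spread of the controls. Its 4 probe sets ran from -0.040 to 0.11, with 2 below and 2 above control.

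LATS2, the kinase that inactivates YAP and TAZ, was at 6.17 and 6.18 on the control arrays and at 6.32 and 6.26 on the knockdown arrays by its brightest probe set. This difference was 0.11 ± 0.053 (SE; limma, adjusted p = 0.65), with no overlap between groups. Of the other LATS2 probe sets, 1 was higher without overlap (0.12), 1 lower without overlap (-0.040) and 1 overlapped (-0.025). AJUBA, a LIM protein that binds LATS kinases at junctions under tension, was at 9.61 and 9.51 on the control arrays and at 9.51 and 9.51 on the knockdown arrays. Its difference of -0.052 ± 0.057 (SE; limma, adjusted p = 0.88) was smaller than the gap between the controls, and 2 of its 4 probe sets were above control.

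**Figure D3:**
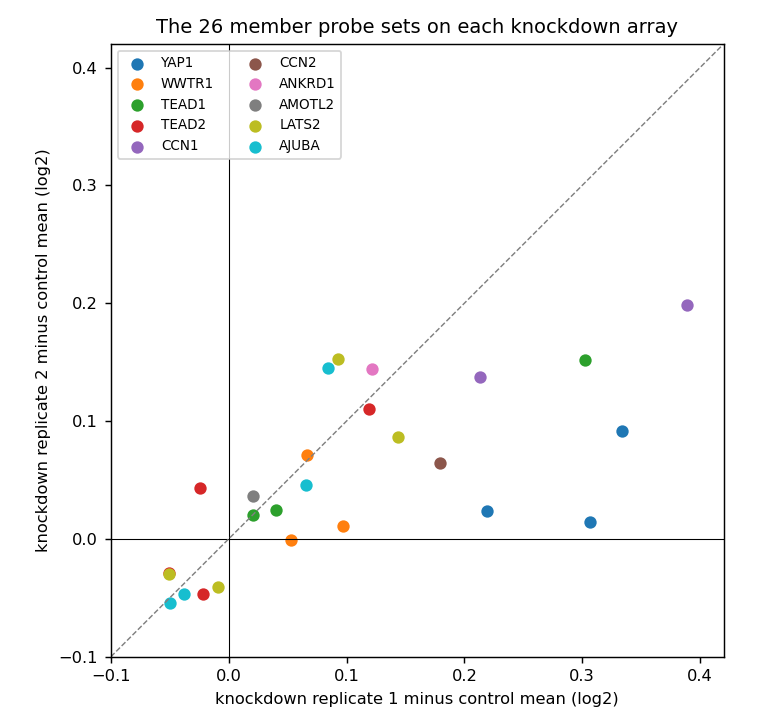
Each of the 26 probe sets by its log2 difference from the mean of the 2 control arrays for knockdown replicate 1 (horizontal axis) and replicate 2 (vertical axis), coloured by gene, with equal differences on the dashed line; both axes share the same controls. Most points right of 0.2 on the horizontal axis, all of them from YAP1, CCN1 and TEAD1, lie well below the line, the brightest YAP1 one at 0.31 and 0.014.

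Knockdown replicate 1 was thus the array on which all probe sets of YAP1 and CCN1 and 2 of the 3 of TEAD1 stood highest. In all, 12 of the 26 member probe sets were highest on that array, beside 14548 of all 54613 probe sets. Without knockdown replicate 2, 4 of the 26 probe sets passed the threshold (2 of YAP1, 1 of TEAD1 and 1 of CCN1; limma, smallest adjusted p = 0.0033), when 1.88% of all probe sets passed. In that fit the remaining knockdown array is assumed to vary like the controls. Without knockdown replicate 1, 0 of the 26 passed (limma; 25 of all probe sets did) and 3 had an unadjusted p under 0.05, as did 7.93% of all. Without control replicate 1 or 2, again 0 of the 26 passed (limma; 1 of all), and 3 and 6 had an unadjusted p under 0.05, beside 5.16% and 5.30% of all. Of 13 measured markers of mesenchymal cells or fibroblasts, 11 were highest on knockdown replicate 1, PRRX1 and PDGFRB being the exceptions. Of all 19775 genes, 5144 were highest on that array. Of the 13 markers, 10 were above control, 5 of them without overlap (14.3% of genes were). The median difference of the 13 was 0.21 on the first knockdown array and 0.043 on the second. Of the 13, 1 was higher and 0 lower at an unadjusted p under 0.05 (limma), beside 2.39% and 5.57% of genes. Over all 56 probe sets of these genes the median was 0.042, against 0.15 over the brightest ones, and 39 were above control. Among the 56, 7 were higher and 0 lower at an unadjusted p under 0.05 (limma), beside 3.72% and 4.12% of all probe sets. The summed linear signal of the 13 brightest probe sets was 22669 and 18467 on knockdown replicates 1 and 2. On the control arrays it was 19368 and 18376. VIM, the brightest of the 13, weighs most in that sum. COL3A1, a fibrillar collagen, was at 8.82 and 8.77 on the control arrays and at 9.46 and 9.02 on knockdown replicates 1 and 2, above control on both (difference 0.44; limma, adjusted p = 0.60). SNAI2, a mesenchymal transcription factor, differed by 0.34 (limma, adjusted p = 0.64), with 8.11 and 7.55 on the knockdown arrays against 7.46 and 7.51. DCN, a fibroblast proteoglycan, was at 9.17 and 9.09 on the control arrays and at 10.06 and 9.19 on knockdown replicates 1 and 2. None of these markers has a true 0 in such values, and PRRX1, also a mesenchymal transcription factor, was among the dimmest at percentiles 27.9 and 32.5 of the control arrays. The part of these markers in the YAP1 and CCN1 values was not tested, and in bulk RNA more cells of a type and more RNA per cell cannot be told apart. Of the noradrenergic genes, GATA3, ISL1, GATA2 and DBH were each above percentile 98 on the control arrays. HAND1 was at percentiles 82.8 and 82.3, HAND2 at 71.5 and 71.2 and TH at 20.4 and 16.2. The mesenchymal or fibroblast markers ran from PRRX1 at 27.9 and 32.5 to VIM at 99.7 and 99.6. These percentiles alone therefore did not place the culture in 1 state. The 11 noradrenergic genes measured had a median of -0.059, with 9 below control and 5 of these without overlap (24.2% of genes were). At an unadjusted p under 0.05, 4 were lower and 0 higher, beside 5.57% and 2.39% of genes, and 0 passed after adjustment (limma). These were the granule proteins CHGA (-0.29) and CHGB (-0.20), the transcription factor HAND1 (-0.23) and DBH, which makes noradrenaline (-0.35). TBX2 and TH were above control without overlap, or 18.2% of the list (14.3% of genes were). Over all 19 probe sets of the 11 genes the median was -0.011, with 8 above control. At an unadjusted p under 0.05, 1 of the 19 was higher and 4 lower (limma), beside 3.72% and 4.12% of all probe sets. Of the 2 DBH probe sets, 1 was above control. The median was 0.0040 for 5 endothelial, 0.058 for 4 Schwann cell or melanocyte and 0.023 for 5 epithelial markers. Over all probe sets of these markers the medians were 0.048, 0.011 and 0.023, in the same order of cell types.

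The rest of the pathway was read from lists of related genes, 1 probe set a gene. These lists too were chosen with earlier results of these data known. The first list held 24 Hippo kinases and other proteins that regulate YAP and TAZ, with CSNK1D, CSNK1E, BTRC and PTPN14 among them. Of the 24, 0 passed over all probe sets (limma). At an unadjusted p under 0.05, 1 was higher and 4 lower, beside 2.39% and 5.57% of all genes. On 16 of the 24 both knockdown arrays lay below both controls and on 1 above, where 24.2% and 14.3% of all genes did. The list median was -0.070, that of all genes -0.0094. STK4, which activates the LATS kinases, was at 9.15 and 9.02 on the control arrays and at 8.91 and 8.90 on the knockdown arrays, a difference of -0.18 ± 0.060 (SE; limma, adjusted p = 0.61). SAV1, its scaffold, differed by -0.15 ± 0.051 (SE; limma, adjusted p = 0.61), and the large cadherin FAT4 by 0.23 ± 0.072 (SE; limma, adjusted p = 0.60). The other 2 of the 4 lower genes, named after their values were seen, were DCHS1, the FAT4 ligand, at -0.16 and the kinase TAOK1 at -0.14. This picture rested on the brightest probe set of each gene: over all 85 probe sets of the 24 genes the median was -0.012, 7 were higher and 5 lower at an unadjusted p under 0.05 (3.72% and 4.12% of all probe sets were), and 3 of the 7 probe sets of STK4 were above control.

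YAP and TAZ partners and inhibitors, from the remaining TEAD genes to the vestigial-like and angiomotin families, had a median of -0.0018 over 19 measured genes, 8 of them above control. VGLL3, a TEAD cofactor, was at 0.17 with values in the dimmest part of the arrays. TJP1 was at -0.060 and the p53 relative TP73 at 0.066. Of the 19, 0 passed (limma). At an unadjusted p under 0.05, 1 was higher and 0 lower, beside 2.39% and 5.57% of all genes. A published signature of YAP and TAZ targets, without the members above (PTPN14 is in this and the upstream list), lay close to control. Of 16 measured genes, 0 passed and 0 had an unadjusted p under 0.05 (limma), where 2.39% of genes were higher and 5.57% lower. In all, 11 of the 16 were above control, and the median was 0.020. That median was -0.011, with 7 of 16 above control, without knockdown replicate 2, and -0.020, with 6 of 13 above, without _s_at and _x_at probe sets. FJX1 was at -0.18 ± 0.084 (SE), NT5E, the ecto-enzyme CD73, at 0.28 ± 0.13 (SE) and MYOF at 0.12 ± 0.058 (SE), with an adjusted p between 0.65 and 0.66 (limma). The other CCN genes, CCN3 to CCN6, ran from -0.079 (CCN4) to 0.10 (CCN5), with CCN6 at -0.052 and a median of -0.016, whose sign also turned with the processing.

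Actin and serum response factor genes, which share inputs with YAP, had 9 of 12 measured members above control and a median of 0.058. Over all 28 probe sets of these genes, 17 were above control and the median was 0.014. At an unadjusted p under 0.05, 5 of the 28 were higher and 0 lower (limma), beside 3.72% and 4.12% of all probe sets. With the mean over a gene's probe sets the list median was 0.029, with 8 of 12 above control. TPM1, a tropomyosin, was at 11.32 and 11.26 on the control arrays and at 11.61 and 11.38 on the knockdown arrays, a difference of 0.20 ± 0.078 (SE; limma, adjusted p = 0.62). CNN2, a calponin, was at 0.13 ± 0.054 (SE; limma, adjusted p = 0.63) and the smooth muscle actin ACTA2 at 0.10 with overlapping arrays. On the 2 knockdown arrays taken singly the median over the brightest probe sets was 0.075 and 0.033. The 10 member genes, taken the same way, had a median of 0.084, 8 of 10 above control, and 0.11 and 0.030 on the 2 knockdown arrays.

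**Figure D4:**
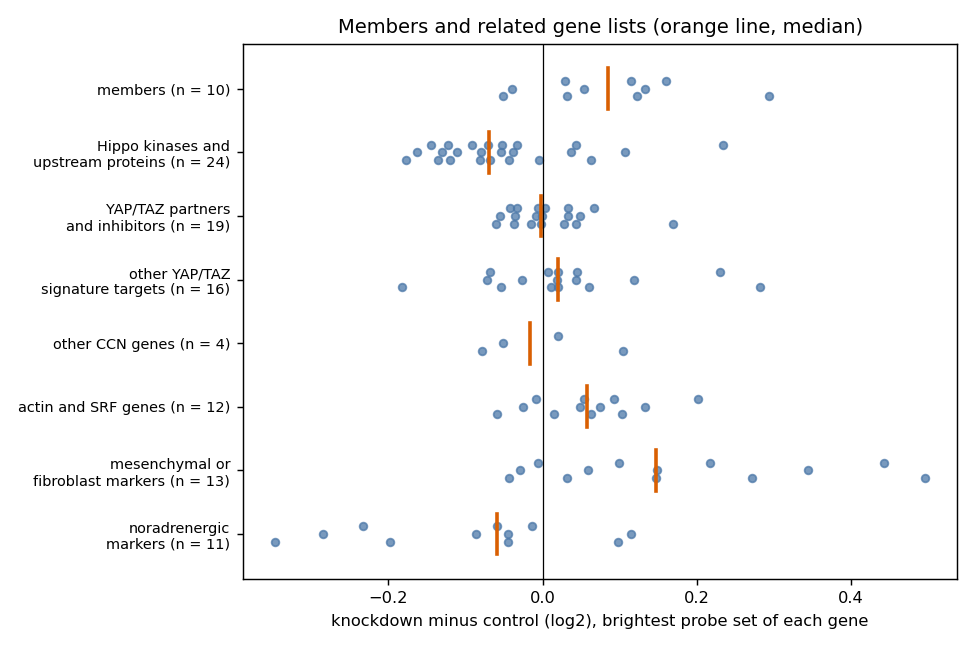
Knockdown minus control (log2, horizontal axis) for the brightest probe set of each gene, 1 point a gene, in the 10 members and 7 lists of related genes or cell markers (rows), with the median as an orange line. The median is 0.084 for the members, -0.070 for Hippo kinases and upstream proteins and 0.020 for other signature targets.

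Genes with array profiles most like that of CCN1 were sought over the 4 arrays, by the smallest distance between values centred on each gene's mean. Of 19765 genes, CHORDC1, a co-chaperone of HSP90, was nearest (distance 0.022, log2 units), followed by GBP2, PTGER2, BRWD3 and NTM (0.032 to 0.052). For CCN2 the nearest were ELAVL1, LOC105378577, HUNK, DRD3 and HLX (0.013 to 0.020). Only 4 arrays define such likeness: 520 genes correlated with CCN1 above 0.95 and 417 with CCN2, so these names are a description of the arrays.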

How the data were processed

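Per the submitters' processing notes, the authors summarised the arrays with RMA in R 3.0.1, settings not given, and deposited 1 log2 value per probe set and array. Of 54675 probe sets, 62 AFFX controls were left out. Platform annotation gave 1 gene to 41091 of the other 54613, several to 1801 (not named) and none listed for 11721, and 0 symbols needed updating through RefSeq.

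Groups were compared with limma 3.58.1 (lmFit, eBayes, R 4.3.3) across all probe sets of the 4 arrays, two-sided, with Benjamini-Hochberg adjustment and a threshold of 0.05, and the code was tested on simulated data. eBayes estimated 5.80 prior degrees of freedom. A gene's representative was its probe set with the highest mean. Named by rule were all members, the 3 genes of each of the 5 pathway lists with the smallest p, and the 5 genes nearest to CCN1 and CCN2. The rule did not cover the cell type markers, which were named after their values were seen. Members and lists were chosen with earlier results of these data known. Equal replicate numbers are not paired by any label, and their deviations correlated at 0.051. Promoters came from RefSeq (GRCh38.p14), with 8 of 10 members matched and none for CCN1 or TEAD1. The number of arrays limits the precision. Figures were drawn with Python 3.11.15 and matplotlib 3.10.9.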

Additional observations from a re-analysis of the deposited data

How the results depend on the processing

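The alternatives were trended robust variance, quantile normalization once more, centring of arrays on their medians, a filter on dim probe sets, removal of _s_at and _x_at probe sets, the mean over a gene's probe sets, the replicate number as a block, and leaving out each array. Over all probe sets 1 passed in the 5 alternatives to normalization, variance and probe sets that gave a count, 0 passed with the replicate block, where TSPAN8 kept its difference of -1.27 (limma, adjusted p = 0.16), and from 1 to 1026 passed with 1 array left out. Direction turned in 5 cases among the member genes, none of them called: LATS2 without _s_at and _x_at probe sets (-0.040), TEAD2 (0.012) and AJUBA (0.019) as means over their probe sets, and TEAD2 (-0.11 to 0.025) and AJUBA (-0.10 to 0.00084) with 1 array left out. With 1 array left out the other members kept their sign, with the ranges YAP1 (0.014 to 0.31), WWTR1 (0.0076 to 0.10), CCN2 (0.057 to 0.19), AMOTL2 (0.0085 to 0.049), ANKRD1 (0.084 to 0.18), CCN1 (0.20 to 0.39), TEAD1 (0.023 to 0.041) and LATS2 (0.086 to 0.14). List medians turned in 7 cases: other CCN genes (0.020 without _s_at and _x_at, 0.047 without knockdown replicate 2, 0.0095 without control replicate 2), partners (0.0099 after quantile normalization, 0.0050 without knockdown replicate 2) and signature targets (given above). The Hippo kinase median was -0.012 with means over probe sets, and the actin median ran from 0.021 to 0.085 with 1 array left out. All probe sets of CCN2, ANKRD1, WWTR1 and LATS2 lay at or below percentile 37.6 on the control arrays. The brightest probe sets of TEAD2 and AJUBA lay at percentiles 87.6 and 86.6 and at 89.4 and 88.6. The cause of the turns in direction was not tested.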
